A study of Mus musculus with 3 samples.

Results

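Transcripts of 10 integrin subunit genes were described in cultured primary mouse hepatic stellate cells: the alpha subunits Itga1, Itga5, Itga8, Itga9, Itga11 and Itgav, and the beta subunits Itgb1, Itgb3, Itgb5 and Itgb8. The genes were chosen by symbol and matched through RefSeq to the Entrez numbers of the deposited tables. All 10 were found among the 17870 genes listed in any library, and all 10 were listed in every library. Stellate cells are the retinoid-storing pericytes of the liver, which turn into matrix-producing cells after injury and in culture. The 3 genotypes had 1 library each and were wild type, TLR4-/- (without the receptor for bacterial lipopolysaccharide) and CD44-/- (without a surface receptor for hyaluronan). Per the labels, all mice were C57BL/6 males 24 weeks old. Cells of every genotype were purified on a density gradient, depleted of Cd11b-positive macrophages, grown for 3 days in medium with 10% serum and kept for 24 h without serum. The knockout alleles, and whether animals were pooled in a library, are named in none of the labels.

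Integrins are cell-surface receptors made of an alpha and a beta chain that tie the matrix outside the cell to the actin skeleton inside. The alpha chain largely sets which matrix protein is bound, while talin and kindlin proteins bind the beta tail and switch the receptor on. Some integrins that contain the Itgav chain also pull on latent TGF-beta in the matrix and release it. In mouse liver, loss of the Itgav chain from stellate cells is known to lessen fibrosis.

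The libraries held 24078669 expected counts in wild type, 23659074 in the TLR4-/- library and 21460725 in CD44-/-. Cd44 was 17.2 FPKM in the wild-type library against 2.57 FPKM in CD44-/-. Tlr4 was 15.8 FPKM in the wild-type library against 10.9 FPKM in the TLR4-/- labelled library, a ratio of 0.693 (95% interval 0.639 to 0.752). Tlr4 message thus remained, at a level that does not settle the genotype, and that library is named by its label throughout. Of 12 stellate cell markers, 11 reached 1 FPKM in each library, among them Des (82.3 to 105 FPKM), Lrat (150 to 267 FPKM, named after its values were seen) and Pdgfrb (158 to 178 FPKM), while Gfap stayed between 0.30 and 0.80 FPKM. No genotype had a replicate, so no difference was tested, and every interval covers counting error only.

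Levels are given in FPKM, fragments scaled by transcript length and sequencing depth, so genes of different length can be set side by side. In wild type, Itgb1 was the most abundant of the 10 at 458 FPKM and place 141 of 16811 listed genes. Itgb5 followed at 262 FPKM (place 260), then Itga9 at 75.2, Itga1 at 64.5, Itgav at 55.7, Itga5 at 41.4 and Itgb3 at 28.9 FPKM. Itga8 was far lower at 5.74 FPKM. Itga11 at 0.84 FPKM and Itgb8 at 0.09 FPKM lay under 1 FPKM in all 3 libraries, so 8 of the 10 members entered the comparisons between libraries. The wild-type order held in the TLR4-/- labelled library except that Itgav (63.9 FPKM) stood above Itga1 (46.7 FPKM). In CD44-/-, Itgb3 (25.7 FPKM) stood above Itga5 (24.2 FPKM), and the 95% counting intervals of these neighbours overlapped, as did those of Itga9 (71.7 FPKM) and Itga1 (69.6 FPKM). No other neighbours in the order of any library had overlapping counting intervals.

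**Figure D1:**
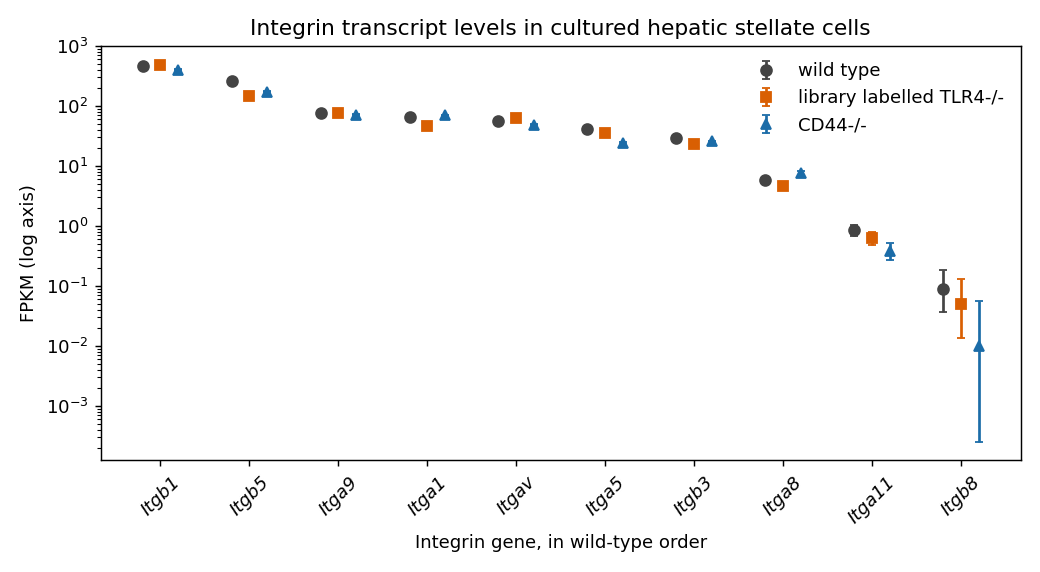
FPKM of the 10 integrin genes (log axis) in the 3 libraries, with 95% counting intervals (Poisson, exact) that are mostly smaller than the symbols. Itgb1 lies between 404 and 483 FPKM, Itgb5 is highest in wild type at 262 FPKM, and Itga11 and Itgb8 lie under 1 FPKM in every library.

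Between the libraries, the largest shift among the 8 measured integrins was in Itgb5, which was lower in both knockout-labelled libraries than in wild type. Itga5 was lowest in CD44-/-, and Itga8 and Itga1 were higher in CD44-/- than in the TLR4-/- labelled library. No measured integrin differed by 2-fold in any comparison, where 3.74%, 4.21% and 4.76% of all genes did. A gene was counted as apart when its log2 ratio of FPKM + 1 passed 1.5-fold, provided it reached 1 FPKM in 1 of the libraries compared. Adding 1 shrinks the ratios of low genes. In the TLR4-/- labelled library against wild type, 1 of 8 integrins was at least 1.5-fold lower (Itgb5) and 0 were higher, where 7.13% of 12098 genes were lower and 4.49% higher. In CD44-/- against wild type, 2 of 8 were lower (Itga5 and Itgb5) and 0 higher, where 5.29% of 12247 genes were lower and 4.71% higher. In the TLR4-/- labelled library against CD44-/-, 1 of 8 was lower (Itga8) and 0 higher, where 8.13% of 12168 genes were lower and 5.56% higher. At 2-fold, 2.69%, 1.97% and 3.44% of all genes were lower and 1.04%, 2.24% and 1.32% higher in the same order of comparisons. With 8 genes, a count of 1 or 2 is too small to set these integrins apart from the background. Their median log2 ratio was -0.23 in the TLR4-/- labelled library against wild type (all genes 0.03) and -0.17 in CD44-/- against wild type (all genes 0.03). Both comparisons share the 1 wild-type library.

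**Figure D2:**
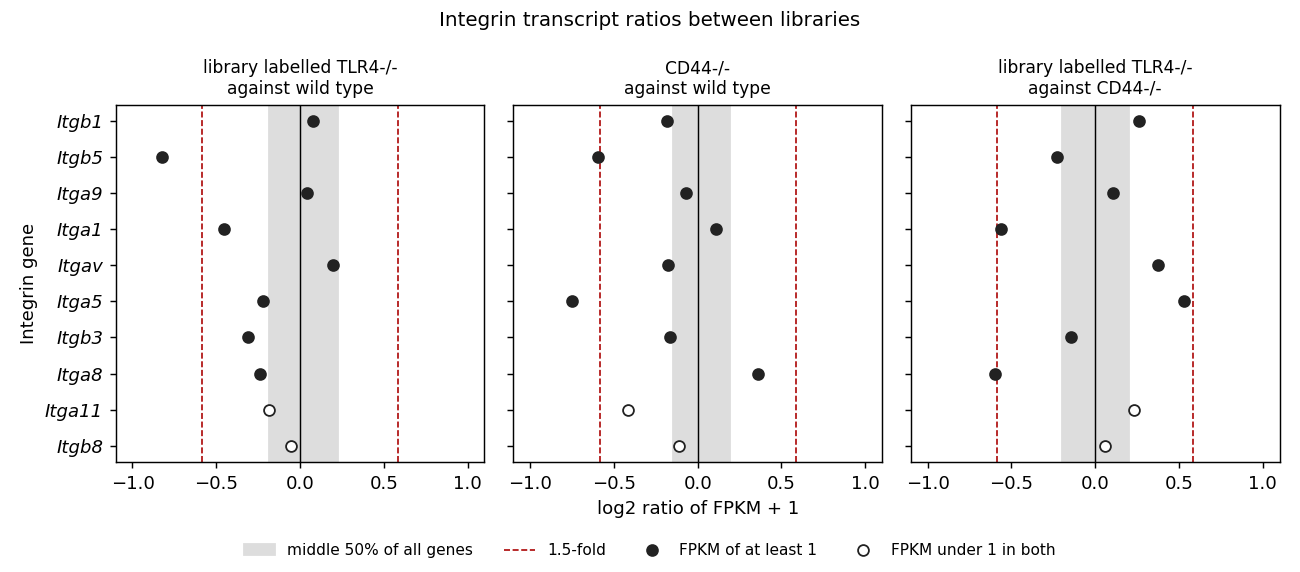
Log2 ratio of FPKM + 1 for each integrin gene in the 3 comparisons, with the middle 50% of all genes shaded and 1.5-fold marked by dashed lines. Itgb5 (-0.82 and -0.59) lies beyond the lower dashed line against wild type in both knockout-labelled libraries, Itga5 lies beyond it in CD44-/- (-0.75) and short of it in the TLR4-/- labelled library (-0.22), and the open points (Itga11 and Itgb8) were under 1 FPKM in both libraries of every comparison.

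Itgb1 encodes the beta chain that pairs with most alpha chains and is needed for adhesion to collagen and fibronectin (Entrez 16412, chromosome 8, 128685654 to 128733579, GRCm38.p6). It measured 458 FPKM in wild type, 483 in the TLR4-/- labelled library and 404 in CD44-/-. The 3 values lay close together, with the highest 1.20 times the lowest. The ratio to wild type was 1.06 (95% interval 1.04 to 1.07) in the TLR4-/- labelled library and 0.882 (0.870 to 0.894) in CD44-/-. These intervals are narrow because 36589 to 48306 counts lie behind each value, and they say nothing of the spread between animals or cultures.

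Of the collagen-binding alpha chains, Itga1 was abundant and Itga11 was near absent. Itga1, a receptor for collagen IV and fibrillar collagens (Entrez 109700, chromosome 13, 114958079 to 115101964), measured 64.5 FPKM in wild type, 46.7 in the TLR4-/- labelled library and 69.6 in CD44-/-. The library labelled TLR4-/- was the low one, at a ratio of 0.725 (0.703 to 0.748) to wild type and 0.672 (0.651 to 0.694) to CD44-/-. The latter, a log2 ratio of -0.56, lay just inside the 1.5-fold limit, and 8.53% of all genes had a lower ratio in that comparison. The gene Pelo lies inside the Itga1 locus on the same strand and was counted as a gene of its own, at 41.5, 32.6 and 38.5 FPKM in the same order of libraries. Itga11, the fibrillar collagen receptor of activated fibroblasts (Entrez 319480, chromosome 9, 62677855 to 62783979), had 100.2 expected counts in wild type, 72.6 in the TLR4-/- labelled library and 41.1 in CD44-/-. Its ratio of counts per library total was 0.738 (0.542 to 1.01) and 0.460 (0.312 to 0.668) to wild type. The CD44-/- value was thus lower by more than counting error, at a level under 1 FPKM in every library.

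The alpha chains that bind the RGD tripeptide differed in their pattern. Itga5, the fibronectin receptor chain (Entrez 16402, chromosome 15, 103344286 to 103366791), measured 41.4 FPKM in wild type, 35.4 in the TLR4-/- labelled library and 24.2 in CD44-/-. CD44-/- was the low library, at a ratio of 0.584 (0.555 to 0.614) to wild type, and 3.41% of all genes had a lower ratio there. The ratio of the TLR4-/- labelled library to wild type was 0.854 (0.817 to 0.892). Its ligand gene Fn1, fibronectin, was not lower in CD44-/-, at 166 FPKM in wild type, 174 in the TLR4-/- labelled library and 205 in CD44-/-. Itgav, the chain shared by the TGF-beta-activating integrins (Entrez 16410, chromosome 2, 83722303 to 83806917), stood at 55.7, 63.9 and 49.1 FPKM in wild type, the TLR4-/- labelled library and CD44-/-. Its ratios to wild type were 1.15 (1.12 to 1.18) and 0.881 (0.854 to 0.908), on opposite sides of 1 and both short of 1.5-fold.

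Itga8, whose protein binds nephronectin in the developing mouse kidney and marks contractile mesenchymal cells (Entrez 241226, chromosome 2, 12106632 to 12301985), measured 5.74 FPKM in wild type, 4.70 in the TLR4-/- labelled library and 7.64 in CD44-/-. Wild type lay between the others. The ratio was 0.819 (0.737 to 0.909) in the TLR4-/- labelled library and 1.33 (1.21 to 1.46) in CD44-/- against wild type, and 0.615 (0.556 to 0.680) between the knockout-labelled libraries. The stellate cell markers differed too: in the TLR4-/- labelled library against CD44-/-, 6 of 11 were at least 1.5-fold lower and 10 of 11 below 0, with a median log2 ratio of -0.65, where 8.13% of all genes were lower and 51.6% lay above 0. Against wild type, 3 of 11 markers were lower and 10 of 11 below 0 in the TLR4-/- labelled library (median -0.38), and 0 of 11 were lower or higher and 9 of 11 above 0 in CD44-/- (median 0.30). The part of these markers in the Itga8 and Itga1 ratios was not tested. Npnt, the nephronectin gene, named after its values were seen, was under 1 FPKM in every library (0.08 to 0.16 FPKM). That is 1 ligand only: of 14 RGD and Itga9 ligand genes, 11 reached 1 FPKM in each library.

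Itga9, a receptor chain for tenascin-C and VCAM-1 that pairs with Itgb1 (Entrez 104099, chromosome 9, 118606709 to 118901003), was the most even of the measured members. It measured 75.2 FPKM in wild type, 77.3 in the TLR4-/- labelled library and 71.7 in CD44-/-, and the highest value was 1.08 times the lowest. Its ligand genes Tnc (named after its values were seen) and Vcam1 were less even. Tnc stood at 85.0, 57.2 and 45.8 FPKM in the same order, and Vcam1 at 34.5, 60.8 and 100.1 FPKM. Expected counts of Itga9, Itga11 and Itgb3 were not whole, as happens where reads match more than 1 gene, so these 3 carry a small added uncertainty.

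The beta chains that pair with Itgav were led by Itgb5. Itgb5, a vitronectin receptor chain that with Itgav can activate latent TGF-beta (Entrez 16419, chromosome 16, 33829665 to 33949338), measured 262 FPKM in wild type, 147 in the TLR4-/- labelled library and 173 in CD44-/-. Wild type was the high library, and the other libraries differed less from each other than from it. The ratio to wild type was 0.563 (0.551 to 0.576) in the TLR4-/- labelled library and 0.661 (0.646 to 0.676) in CD44-/-, and 0.853 (0.831 to 0.875) between them. Of all genes, 3.87% had a lower ratio in the former and 5.14% in the latter. The CD44-/- ratio, a log2 value of -0.59, lay only just past the 1.5-fold limit. Itgb3, the vitronectin receptor chain of platelets and osteoclasts that fibroblasts also carry (Entrez 16416, chromosome 11, 104608000 to 104670476), stood at 28.9, 23.1 and 25.7 FPKM. Its ratios to wild type, 0.800 (0.763 to 0.837) and 0.889 (0.848 to 0.931), were in the same direction as those of Itgb5 and smaller in size. Itgb8, another chain that activates latent TGF-beta (Entrez 320910, chromosome 12, 119162803 to 119238276), had 7, 4 and 1 counts in wild type, the TLR4-/- labelled library and CD44-/-. The ratio of counts per library total was 0.582 (0.125 to 2.29) and 0.160 (0.00356 to 1.25) to wild type, so no difference was detectable at this depth.

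The upstream windows of Itgb5 and Itga5, the members lower than wild type by 1.5-fold, and of Itgb1, the most abundant, are shown because these members carry the results above. RefSeq (GRCm38.p6) gave a start site for 9 of the 10 members, Itgb3 being the other, and the windows of Itga8, Itga9 and Itgav overlap their own annotated genes, since the table gives a start site inside them, and were left out. Each line holds the 250 bases before the start site, 5′ to 3′ on the gene's strand, and capitals mark matches on either strand to the letters GGAATG (TEAD), CAGAC (SMAD), TGANTCA (AP-1), GGGCGG (SP1) or to the CArG box of serum response factor, with no overlap between matches of different motifs.
Itgb5 (chr16:33829415-33829664, plus strand): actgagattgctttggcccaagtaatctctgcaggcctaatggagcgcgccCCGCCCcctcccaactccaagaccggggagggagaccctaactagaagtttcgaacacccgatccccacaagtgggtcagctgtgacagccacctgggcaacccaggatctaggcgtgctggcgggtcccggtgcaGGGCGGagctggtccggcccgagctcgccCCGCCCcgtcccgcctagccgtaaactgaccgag
Itga5 (chr15:103366792-103367041, minus strand): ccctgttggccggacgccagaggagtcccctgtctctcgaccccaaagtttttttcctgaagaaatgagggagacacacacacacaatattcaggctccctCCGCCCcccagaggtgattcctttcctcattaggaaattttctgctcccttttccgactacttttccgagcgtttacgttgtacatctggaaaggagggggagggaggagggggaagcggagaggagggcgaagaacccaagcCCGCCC
Itgb1 (chr8:128685404-128685653, plus strand): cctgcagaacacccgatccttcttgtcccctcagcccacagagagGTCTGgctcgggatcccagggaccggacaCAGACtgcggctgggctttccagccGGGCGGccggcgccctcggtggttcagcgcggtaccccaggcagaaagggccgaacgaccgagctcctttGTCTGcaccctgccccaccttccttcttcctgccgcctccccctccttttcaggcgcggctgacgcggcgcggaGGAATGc

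The windows of Itgb5 and Itga5 held SP1 letters in 3 and 2 places and none of the others. That of Itgb1 held TEAD letters in 1 place, ending 2 bases before the start site, SMAD letters in 3 and SP1 letters in 1. Among the 6 windows that lie outside their genes, SP1 letters were found in 3, SMAD letters in 3, TEAD letters in 1 and AP-1 or CArG letters in 0. Of 32851 promoter windows in the RefSeq table, 32.7% held SP1 letters, 42.2% SMAD, 12.6% TEAD, 6.75% AP-1 and 1.47% the CArG box. The share of G and C bases was 65.2% for Itgb5, 55.6% for Itga5 and 68.0% for Itgb1, against a median of 52.4% over all windows. Such matches are letters only, and no binding was measured here.

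The pool of integrin transcripts held far more beta than alpha chain message in every library. Summed FPKM of the 4 beta chains was 748 in wild type, 654 in the TLR4-/- labelled library and 602 in CD44-/-, against 243, 229 and 222 for the 6 alpha chains. Itgb1 made up 61.2% of the beta sum in wild type, 73.9% in the TLR4-/- labelled library and 67.0% in CD44-/-, and Itgb5 35.0%, 22.5% and 28.7%. The Itgb5 level was 4.70 times that of its partner Itgav in wild type, 2.31 times in the TLR4-/- labelled library and 3.52 times in CD44-/-. Within the alpha sum, the share of Itga1 was 26.5%, 20.4% and 31.3%, and that of Itga5 was 17.0%, 15.5% and 10.9%. The total of all 10 genes was 992, 883 and 825 FPKM in the same order. Chains made by the 10 genes also pair with subunits outside them, and protein was not measured.

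**Figure D3:**
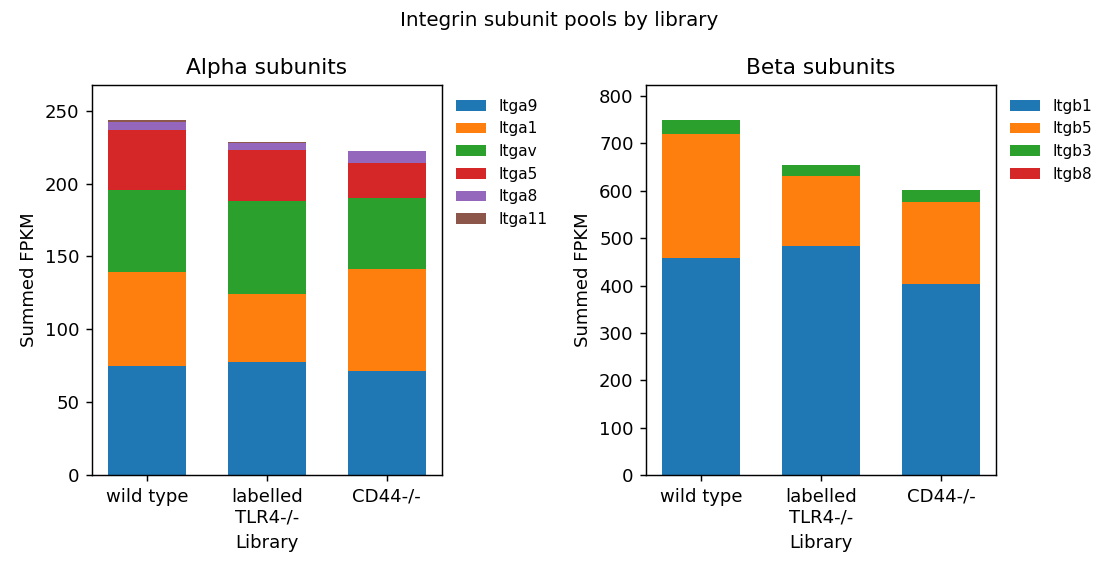
Stacked FPKM of the 6 alpha chains (left) and 4 beta chains (right) in each library, on separate linear axes from 0. The Itgb5 block is tallest in wild type (262 FPKM) while the Itgb1 block stays between 404 and 483 FPKM, and Itga11 and Itgb8 are too low to see or nearly so.

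Of the 8 measured members, Itgb5 and Itga5 were the 2 with the widest range of log2(FPKM + 1) over the libraries, and the genes of most similar pattern were sought among 9250 others with FPKM of at least 5 in some library, by the distance between mean-centred log2(FPKM + 1) values. Nearest to Itgb5 were H2-T-ps, a class I pseudogene, Angpt2, a ligand of the endothelial receptor Tek, and Mrtfa, a coactivator of serum response factor, at distances of 0.02, 0.02 and 0.03. Mrtfa measured 20.1 FPKM in wild type, 11.2 in the TLR4-/- labelled library and 13.1 in CD44-/-. Nearest to Itga5 were Slc19a2, a thiamine transporter, Tubb6, a beta-tubulin, and Cgnl1, a junction protein, each at 0.01 to 0.02. Tubb6 stood at 108 FPKM, 91.8 and 62.9 in the same order. Over 3 libraries such a pattern is only 2 ratios, and 22 genes lay within 0.1 of Itgb5 and 27 of Itga5.

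Transcripts of the proteins that join integrin tails to actin lay mostly a little under the wild-type level in the TLR4-/- labelled library. Of 31 measured activators and adaptors, 5 were at least 1.5-fold lower and 0 higher, 25 of 31 lay below 0, and the median log2 ratio was -0.28 (all genes 0.03). Over all genes in that comparison, 7.13% were lower, 4.49% were higher and 53.9% lay above 0. The 5 were Bcar1, Lims2, Zyx, Tgfb1i1 and Apbb1ip, the last 3 named after their values were seen. Bcar1, a docking protein that relays adhesion signals, measured 96.7 FPKM in wild type, 50.1 in the TLR4-/- labelled library and 51.2 in CD44-/-, a ratio of 0.518 and 0.529 to wild type. Lims2, a partner of integrin-linked kinase, stood at 30.5, 15.9 and 17.6 FPKM. At the other end lay Rap1a and Crk, with log2 ratios of 0.22 and 0.21. In CD44-/-, 3 of 32 were lower (Bcar1, Lims2 and, named after its value was seen, the actin crosslinker Actn1) and 1 was higher, Ptk2b, a kinase also named after its value was seen, at 2.96 FPKM against 0.69. Over all genes in CD44-/-, 5.29% were lower and 4.71% higher. The list median in CD44-/- was -0.08, and Fermt3, the kindlin of blood cells, and Kank2 had log2 ratios of 0.37 and 0.34. Talin 1 and kindlin 2, the main activators (genes Tln1 and Fermt2, also singled out after their values were seen), stood at 131 and 132 FPKM in wild type, 94.4 and 106 in the TLR4-/- labelled library, and 107 and 122 in CD44-/-.

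Genes of membrane partners of integrins included some past 1.5-fold in each direction. Of 13, 7 lay below 0 in the TLR4-/- labelled library and 10 in CD44-/-, where 53.9% and 54.7% of all genes lay above 0. In the TLR4-/- labelled library against wild type, 2 of 13 were at least 1.5-fold higher and 2 lower, with a median log2 ratio of -0.05. Over all genes, 4.49% were higher and 7.13% lower there, and 4.71% and 5.29% in CD44-/-. Cd9, a tetraspanin, was lowest at 16.2 FPKM against 54.8, and the matrix co-receptor Sdc4 stood at 46.4 against 84.7. Slc3a2, which binds beta tails and carries amino acid transporters, stood at 175 against 116 FPKM, and Cd47 at 115 against 80.0 FPKM, short of 1.5-fold. The other gene past 1.5-fold, named after its value was seen, was Cav1, at 4.72 against 2.54 FPKM. In CD44-/-, 1 of 13 was higher (the tetraspanin Cd82, 53.6 FPKM against 33.1) and 2 were lower, Cd44 itself and Cav1 (1.06 FPKM), with a median of -0.12 against 0.03 for all genes. Cd81 and Cd47 had log2 ratios of -0.39 and 0.41 there.

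Ligand genes differed in number and direction between the comparisons. Over all genes, 7.13% were lower and 4.49% higher in the TLR4-/- labelled library, and 5.29% and 4.71% in CD44-/-. Of 11 measured RGD and Itga9 ligand genes, 3 were at least 1.5-fold lower and 1 higher in the TLR4-/- labelled library (median -0.53). In CD44-/-, 4 were lower and 1 higher (median -0.07). In the TLR4-/- labelled library, Tgfbi stood at 25.1 FPKM against 68.8 and Thbs1, an activator of latent TGF-beta, at 36.4 against 85.1. In CD44-/-, Postn, periostin, stood at 92.5 FPKM against 238 and Spp1, osteopontin, at 57.4 against 125, while Tgfbi had a log2 ratio of 0.48. Vcam1 was the higher gene in both. Of 10 collagen genes, 2 were lower and 1 higher in the TLR4-/- labelled library (median -0.22) and 1 lower and 1 higher in CD44-/- (median -0.12). Col6a3 was the higher one in the former (log2 ratio 0.59), and Col5a2 had log2 ratios of 0.16 and -0.41. Col3a1 and Col1a1 went opposite ways in CD44-/-, with Col3a1 at 696 FPKM against 384 and Col1a1 at 205 against 588. In the TLR4-/- labelled library, both were lower, with log2 ratios of -0.64 and -0.71, and Col6a1 had a log2 ratio of 0.36 in CD44-/-.

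The latent TGF-beta list holds partners of latent TGF-beta, on which Itgav integrins act, and also target genes of TGF-beta such as Ccn2. It lay mostly below wild type, with 10 of 10 genes under a log2 ratio of 0 in the TLR4-/- labelled library and 8 of 10 in CD44-/-. Over all genes, 53.9% and 54.7% lay above 0. That list was shortened by 1 gene after the values were seen. Of 10 genes, 2 were at least 1.5-fold lower and 0 higher in the TLR4-/- labelled library (median -0.22), and 4 lower and 1 higher in CD44-/- (median -0.28). Over all genes, 7.13% were lower and 4.49% higher in the former, and 5.29% and 4.71% in the latter. Ccn2, a matricellular TGF-beta target, measured 369 FPKM in wild type, 142 in the TLR4-/- labelled library and 159 in CD44-/-. Ltbp1, which anchors latent TGF-beta in the matrix, stood at 31.5, 19.5 and 9.72 FPKM. The other genes past 1.5-fold in CD44-/-, named after their values were seen, were Tgfb3 and Lrrc32, which tethers latent TGF-beta to the cell surface (both lower, at log2 ratios of -0.89 and -1.05), and Nrros (higher, at 0.61). Tgfb3 and Skil had log2 ratios of -0.11 and -0.01 in the TLR4-/- labelled library, and Ltbp3 and Skil 0.21 and -0.07 in CD44-/-. Signalling by TGF-beta was not measured, and the part of Itgb5 in these values was not tested.

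**Figure D4:**
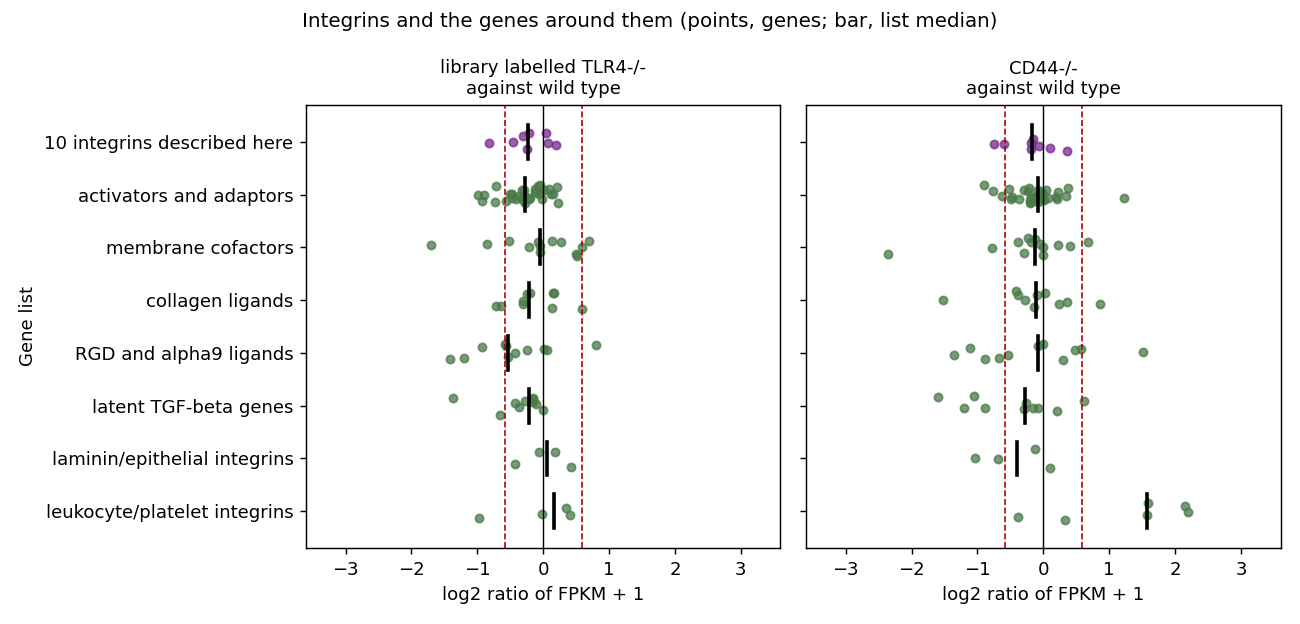
Log2 ratio of FPKM + 1 against wild type for each measured gene of 8 lists, in the TLR4-/- labelled library (left) and CD44-/- (right), with list medians as bars and 1.5-fold as dashed lines. The 8 measured integrins (median -0.23 and -0.17) spread less widely than the latent TGF-beta genes, where Ccn2 lies at -1.37 and -1.21, and 4 leukocyte integrins lie beyond the upper dashed line in CD44-/-.

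Integrins typical of other cells were read from 16 further integrin genes. Of the 6 measured leukocyte and platelet integrins in CD44-/- against wild type, 4 were higher: Itgb2, the shared leukocyte beta chain, at 40.4 FPKM against 12.7, Itgax at 8.87 against 1.15, Itgam at 5.09 against 0.37 and, named after its value was seen, Itgal at 2.47 against 0.17. Over all 12247 genes in that comparison, 4.71% were higher. In the TLR4-/- labelled library, Itgam stood at 0.06 FPKM and Itgax at 0.10, while Itgb2 stood at 17.2. Macrophage markers stood in the same order as Itgam and Itgax: 13 of 14 were listed, and their summed level was 54.8 FPKM in wild type, 24.7 in the TLR4-/- labelled library and 525 in CD44-/-, with Clec4f at 0 in the TLR4-/- labelled library. Of the laminin and epithelial integrins, Itga2, a collagen receptor, stood at 7.80, 5.56 and 3.28 FPKM in wild type, the TLR4-/- labelled library and CD44-/-. Itga6, a laminin receptor, stood at 5.45, 7.60 and 3.01 FPKM, and Itga3 at 14.4, 13.7 and 15.5 FPKM.

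Markers of other cells also differed between the libraries, in differing orders. The 10 endothelial markers summed to 69.2 FPKM in wild type, 24.3 in the TLR4-/- labelled library and 33.9 in CD44-/-, highest in wild type as Itgb5 was. Cdh5, among the lowest ratios to wild type in both knockout-labelled libraries, stood at 12.3, 0.91 and 2.58 FPKM. Egfl7 alone made up 31.4, 21.4 and 23.9 FPKM of these sums. Of the 10, 8 reached 1 FPKM in wild type, 1 in the TLR4-/- labelled library and 4 in CD44-/-. The 6 smooth muscle markers summed to 899, 636 and 519 FPKM. Most of that was Tagln (601, 515 and 330 FPKM) and Acta2 (235, 81.5 and 148 FPKM). Whether these transcripts came from the stellate cells themselves or from other cells was not tested. The 7 hepatocyte markers summed to 10.4, 2.06 and 0.88 FPKM, with Apoa1, Fgb and Tat at 0 in CD44-/-. The 3 listed platelet markers summed to 9.60, 12.5 and 25.1 FPKM, nearly all of it Pf4. The 5 bile duct markers summed to 129, 130 and 59.9 FPKM, nearly all of it Spp1, while Krt7 and Epcam stayed at 0.10 FPKM or less. Of the 5, 2 reached 1 FPKM in wild type, 3 in the TLR4-/- labelled library and 2 in CD44-/-. Against wild type, 1 of 3 measured was at least 1.5-fold higher and 0 lower in the TLR4-/- labelled library (all genes 4.49% and 7.13%). In CD44-/-, 1 of 3 was higher and 2 lower (all genes 4.71% and 5.29%). The part of these cells in the Itgb5 and Itga5 differences was not tested. In bulk libraries, fewer cells of a type and less RNA per cell cannot be told apart.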

How the data were processed

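RNA of 3 cultured stellate cell preparations was sequenced, 1 library per genotype. The authors deposited for each library a table of expected counts (estimated read numbers that need not be whole), FPKM values and a transcript length for each gene. Per the submitters' processing notes, RSEM and the mm10 build were used, with no version given. How strand was handled is not given in the sources used. The lowest deposited FPKM is 0.01, and genes absent from a table were taken as 0. The series text speaks of triplicates, and the labels give 1 sample per genotype. It names TLR4-/- in 2 places without CD44-/-, and genotypes were taken from the sample labels.

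Symbols came from RefSeq (GRCm38.p6, the build that mm10 also names), which matched 17824 of 17870 genes. Differences were described by log2 ratios of FPKM + 1 among genes that reached 1 FPKM in 1 of the libraries compared, with 1.5-fold as the limit. Ratios of single genes leave out that 1. For these, 95% intervals are exact conditional binomial (Clopper-Pearson) on rounded expected counts and library totals. No test across genes was run. The 10 members, the 14 other gene lists and the limits were chosen with earlier results of these data known. Genes named from the lists were the 2 highest and 2 lowest ratios with FPKM of at least 5, and others are marked. Alternatives were no filter, a minimum of 5 FPKM, a pseudocount of 0.1, TPM, median-of-ratios scaling, TMM-scaled CPM from edgeR 4.0.16 on rounded counts, and a 2-fold limit. The planned protein motif search was not run, since no protein sequence was used here. A gene of the latent TGF-beta list is not reported here and is in none of that list's counts. The steps were tested on simulated data.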

Additional observations from a re-analysis of the deposited data

Results flagged for a closer look

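Itga8 lay on opposite sides of wild type in the knockout-labelled libraries, lower in the TLR4-/- labelled library (4.70 FPKM against 5.74) and higher in CD44-/- (7.64 FPKM), each by more than counting error. The log2 ratio of FPKM + 1 between these libraries was -0.60, just past 1.5-fold. No test of the difference was possible with 1 library a genotype, so it was not tested, and 7.84% of 12168 genes had a lower ratio in that comparison.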

How the results depend on the processing

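The signs of the 8 measured integrins held in all 3 comparisons under a pseudocount of 0.1, median-of-ratios scaling, TPM and TMM-scaled CPM, and no member changed sign. Of 120 recomputed member ratios, 115 stayed within counting error of the main log2 value and 5 moved by more, with none reversed. Those that moved were Itgb1 against wild type under median-of-ratios scaling and TMM-scaled CPM, and Itga11 with a pseudocount of 0.1. The latter went from -0.42 to -0.97 in CD44-/- against wild type. With a 2-fold limit the count of lower integrins was 0 in each comparison. The median log2 ratio in the TLR4-/- labelled library against wild type was -0.31 with TMM-scaled CPM. Against CD44-/- that median was -0.02, and it took the other sign with no filter (0.082), with TPM (0.10) and with TMM-scaled CPM (0.11). In those settings 9 or 10 members were measured in place of 8. Itga11 was then among them and lay past 1.5-fold in CD44-/- against wild type, at -0.64 with TPM and -0.84 with TMM-scaled CPM. Itgb5 in CD44-/- stayed close to the limit of 1.5-fold, between -0.59 and -0.62 in log2 ratio over the scalings. No paired analysis was possible because each genotype has 1 library. Depth limits Itgb8, with at most 7 counts in a library, and Itga11.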

Other observations

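Itgb2, the leukocyte beta chain, did not follow its alpha partners in the TLR4-/- labelled library. Its level was 17.2 FPKM there against 12.7 in wild type, a ratio of 1.35 (95% interval 1.24 to 1.47). Itgax was 0.10 FPKM against 1.15, a ratio of counts per library total of 0.0888 (0.0424 to 0.173), and Itgam had 6.95 expected counts against 42. The kindlin of blood cells, Fermt3, measured 6.99 FPKM in wild type, 6.65 in the TLR4-/- labelled library and 9.33 in CD44-/-, where macrophage markers were 9.57 times the wild-type sum. In CD44-/-, Itgb2 was 3.17 times wild type (2.94 to 3.43) and Itgam 13.8 times (10.0 to 19.3). These genes were singled out after their values were seen.

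Of 4 measured laminin and epithelial integrins, 2 were at least 1.5-fold lower in CD44-/- than in wild type and 0 higher. Over all genes, 5.29% were lower and 4.71% higher there. The 2 were Itga2 and Itga6, at ratios of 0.421 (0.367 to 0.480) and 0.552 (0.477 to 0.640). The other 2 lay short of 1.5-fold, among them Itga3 at 15.5 FPKM against 14.4. Itga6 stood 2.52 times higher (2.19 to 2.91) in the TLR4-/- labelled library than in CD44-/-.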
